A study of Homo sapiens with 12 samples.

Results

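The ZNF genes of chromosome 19 were taken as every protein-coding gene of that chromosome in the RefSeq table (GRCh38.p14) whose symbol begins with ZNF and a digit. The rule found 250 genes among the 1451 protein-coding genes of chromosome 19 and the 20050 of the genome. Of these 250, 4 carried hyphenated symbols (ZNF559-ZNF177, ZNF816-ZNF321P, ZNF765-ZNF761 and ZNF470-DT). They were set against the other 1201 protein-coding genes of chromosome 19.

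The samples came from PANC-1, an established line of human pancreatic ductal adenocarcinoma, transfected with siRNA. Their polyadenylated RNA was fragmented and either precipitated with an antibody against 1-methylguanosine (m1G), a guanosine with a methyl group on its base, or kept as input. The 12 libraries formed 4 groups of 3, namely m1G-precipitated RNA and input RNA of cells with TRMT5 knockdown (TRMT5 KD, 4 days), and m1G-precipitated RNA and input RNA of control cells (WT control). All were of experiment 2, and TRMT5 is the enzyme that methylates guanosine beside the tRNA anticodon. The study asked which mRNAs may carry m1G.

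The deposited values were 2 peak lists of the whole series, with 9585 MetDiff peaks (1014 on chromosome 19) and 3705 MACS2 summits (429 on chromosome 19). Neither list held a value of a single library or a column named as knockdown against control. No spread between replicates and no effect of the knockdown could therefore be given, and the depth of the libraries is unknown. Fold and false discovery rate (FDR) belong to the MetDiff peaks and −log10 q to the summits, and all are the authors' values. The fold was read as m1G-precipitated over input RNA from its place in a list without a header, so another contrast is possible. All 5 markers of the carcinoma line (KRT8, KRT18, KRT19, VIM and NES) had MetDiff peaks, and 0 of 8 markers of immune, acinar and islet cells had a peak in either list. Of all protein-coding genes 21.3% held a MetDiff peak, so a count of 0 among so few markers says little.

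Chromosome 19 holds the densest clusters of zinc finger genes in the human genome, which arose by repeated duplication. Most of these genes encode a row of C2H2 fingers, each of which grips a few bases of DNA, and many begin with a KRAB domain. KRAB binds the scaffold protein TRIM28, which brings the histone methyltransferase SETDB1 and heterochromatin proteins to the bound DNA, often a transposable element. Members without KRAB act in other ways, and some carry a SCAN domain through which they pair.

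Few of the ZNF genes had a peak. A MetDiff peak lay wholly inside the span of 14 of 250 ZNF genes (5.6%, 95% Wilson interval 3.36 to 9.18), against 391 of 1201 other genes of the chromosome (32.6%, 30.0 to 35.3). A summit lay in 5 of 250 ZNF genes (2.0%, 0.857 to 4.60), against 197 of 1201 other genes (16.4%, 14.4 to 18.6). Of all 20050 protein-coding genes, 21.3% held a MetDiff peak, 9.4% a summit and 8.07% both. Both kinds of peak were found in 4 ZNF genes (ZNF780A, ZNF579, ZNF787 and ZNF444), against 15.2% of other genes of the chromosome, and a summit alone in ZNF136. The remaining 235 ZNF genes, including the 4 with hyphenated symbols, had neither. The intervals cover counting error only and treat neighbouring genes as independent. The shares are given as a description without a test, and all genes count in them, whether or not the cells express them. The level of expression of the genes was not analysed here, and its part in the difference was not tested.

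**Figure D1:**
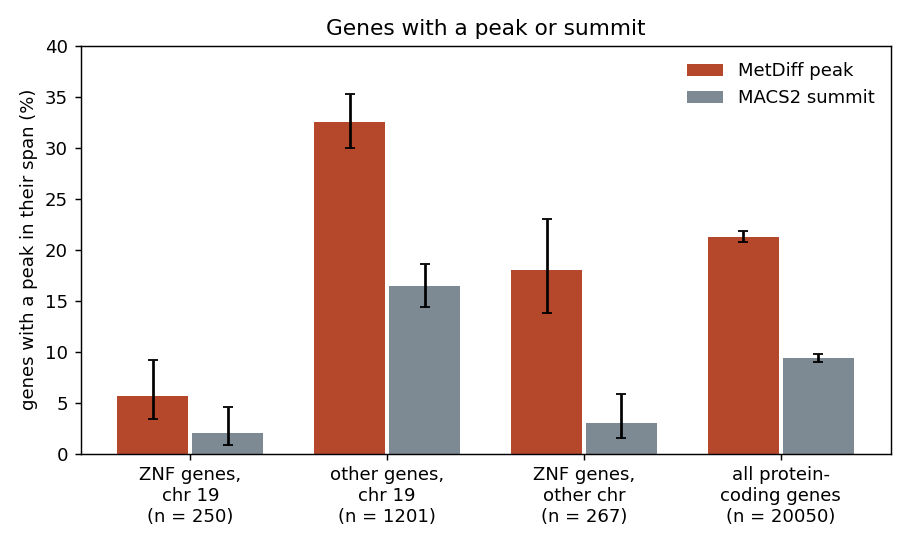
Share of genes (y axis, percent) with a MetDiff peak (red) or a MACS2 summit (grey) in their span, in 4 overlapping sets of genes; error bars are 95% Wilson intervals. The ZNF genes of chromosome 19 have the lowest bars of the 4 sets, with 5.6% for MetDiff peaks and 2.0% for summits.

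The ZNF genes held down the share of the whole chromosome. With them, 27.9% of chromosome 19 genes had a MetDiff peak, behind chromosomes 22 (34.8%), 16 (33.5%) and 17 (31.2%). Without them the share was 32.6%, and 2 other chromosomes lay above it. For summits the share was 13.9% with the ZNF genes and 16.4% without them, and 0 other chromosomes lay above the second value. ZNF genes on other chromosomes had MetDiff peaks in 48 of 267 cases (18.0%, 13.8 to 23.0) and summits in 8 (3.00%, 1.53 to 5.80). The chromosome 19 ZNF genes thus had the lower share of MetDiff peaks of these 2 sets, while the intervals for summits overlapped. Among genes with a MetDiff peak, 4 of 14 ZNF genes of chromosome 19 also had a summit, against 183 of 391 other genes of the chromosome (46.8%) and 5 of 48 ZNF genes elsewhere (10.4%).

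The 14 ZNF genes held 36 MetDiff peaks, of which 26 were single exon blocks and 10 joined several blocks. Because some rows of the list overlap, the 36 peaks cover 30 separate regions. In 3 genes there was 1 peak, in 8 genes there were 2, and ZNF787, ZNF444 and ZNF8 had 4, 6 and 7. Other chromosome 19 genes with a peak had a median of 2 and up to 13, and the ZNF genes likewise had a median of 2.

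Fold varied widely among the members. It ranged from 1.67 in ZNF780B to 22.6 in ZNF444, with a median of 6.25 (quartiles 4.04 and 8.62) over the 36 peaks of the ZNF genes, against 4.49 (3.10 and 7.09) over 953 peaks of other chromosome 19 genes. Without ZNF8, whose rows overlap each other, the median of the ZNF peaks was 5.36. Taking the strongest peak of each gene, the median was 6.82 over 14 ZNF genes and 6.71 over 391 other genes. The genes of chromosome 19 with the highest folds outside the ZNF set were TYK2 (48.5), APLP1 (40.3) and RHPN2 (33.6). A fold of at least 10 was reached by 8 peaks in 4 ZNF genes (ZNF444, ZNF8, ZNF264 and ZNF333), or 22.2% of their peaks, and by 13.6% of peaks in the other genes. Of those 8 peaks, 5 were overlapping rows of ZNF8. Over the 29 peaks without ZNF8 the share was no longer above that of the other genes.

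**Figure D2:**
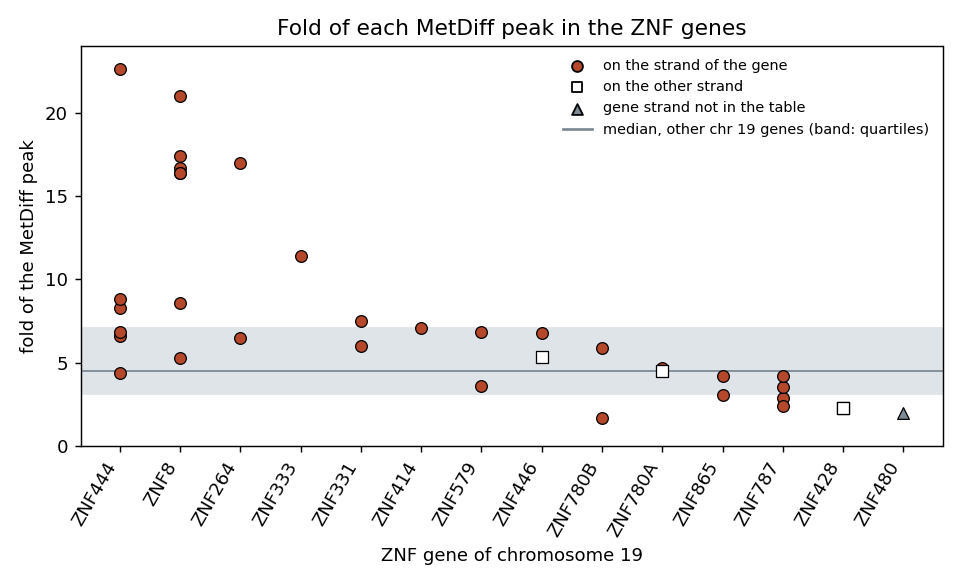
Fold of every MetDiff peak (y axis, linear) in the 14 ZNF genes with one, ordered by their highest fold. Red circles lie on the strand of the gene, white squares on the other strand, and the triangle marks ZNF480, whose strand was not taken from the table; the grey line and band give the median of 4.49 and the quartiles of peaks in other chromosome 19 genes.

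ZNF444, a SCAN domain protein without KRAB, had the highest fold and the highest −log10 q among the ZNF genes of chromosome 19. Its span (chromosome 19, 56132553 to 56160893, plus strand) held 6 MetDiff peaks under 1 gene ID (ENSG00000167685) that covered 805 exonic bases. The peak at 56146369 to 56146938 joined 2 exon blocks over 101 exonic bases and had a fold of 22.6 (FDR 1.55e-04), a fold reached by 0.991% of the whole list. Its FDR was less exceptional, as 44.9% of the list had one at or below it. A second peak lay just downstream, at 56147087 to 56147187, with a fold of 6.59. The other 4 stood at 90.8% to 99.1% of the span from its 5′ end, between 56158224 and 56160743, with folds of 8.29, 8.80, 4.38 and 6.84. The summits of ZNF444 fell near these peaks but outside their exon blocks. One at 56146853 had −log10 q of 37.1, reached by 9.18% of all summits, and lay within the gap between the blocks of the strongest peak. The second, at 56158374 with 19.8, lay 50 bases past a peak.

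ZNF8, a KRAB protein, had the second highest fold and no summit. Its 7 peaks came under 3 gene IDs (ENSG00000278129, ENSG00000283515 and ENSG00000267216) and reduced to 3 separate regions. All of them also lay in the span of ZNF8-ERVK3-1, a long non-coding RNA of the same strand, so the reads of ZNF8 and of this transcript cannot be told apart. The first region, from 58279055 to 58285723, had a fold of 5.31. In the second, which reached from 58286129 to 58294220 across an intron, the folds were 16.7 and 16.4. The third, from 58294777 to 58295175, carried 8.56, 16.4, 17.4 and 21.0. Despite these folds the FDR values were modest for the list, between 6.61e-04 and 0.00398. By comparison, 63.1% of all MetDiff peaks had an FDR at or below the lowest of them.

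ZNF264 and ZNF333, both KRAB proteins, completed the members with a fold of at least 10. ZNF264 (57191500 to 57222846, plus strand) had 17.0 at 57212112 to 57212212 with an FDR of 1.17e-06, and 6.50 in a peak of 2 blocks near its 5′ end. ZNF333 (14689787 to 14733742, plus strand) had a single peak of 2 blocks, from 14705085 to 14706105, with a fold of 11.4 (FDR 4.79e-04). Neither gene had a summit. An FDR at or below that of the ZNF333 peak was held by 59.3% of the list. For the ZNF264 peak with a fold of 17.0 it was 12.2%.

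Several proteins with C2H2 fingers and no KRAB domain followed with moderate folds. ZNF414 had 1 peak at 8513120 to 8513219 with a fold of 7.11. In ZNF579, whose span of 4075 bases was the shortest among the members with a peak, 2 peaks covered 547 exonic bases. They had folds of 6.85 at 55578855 to 55579251 and 3.63 at 55578458 to 55578607, and the second had an FDR of 1.20e-07. Its summit at 55579287 (−log10 q 9.45) lay 36 bases from the first of these peaks. ZNF865 had folds of 3.05 and 4.22 and no summit. ZNF787 had 4 peaks with folds between 2.41 and 4.18, of which 3 stood at the 3′ end of the gene, and 2 summits with 7.89 and 11.3. One summit, at 56088426, lay inside an exon block, as did that of ZNF780A, and the other 5 summits of ZNF genes did not.

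The other KRAB members had lower highest folds than ZNF8, ZNF264 and ZNF333. ZNF331, which is imprinted in some human tissues, had 2 peaks near each other, at 53521524 to 53521624 and 53521723 to 53521823, with folds of 7.5 and 6.0. ZNF480 had a peak of 3 blocks from 52297219 to 52314207 with a fold of 2.00. ZNF136 had 0 MetDiff peaks, and its summit at 12185704 had −log10 q of 6.22, the lowest among the 7 summits of ZNF genes.

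For 4 peaks in 3 members the strand did not match the gene. Both peaks in the span of ZNF428 (fold 2.29 each) were on the plus strand, while ZNF428 is on the minus strand, and they also lay in SRRM5, a plus strand gene. ZNF428 was thus a member with a peak by position and had 0 peaks on its own strand. ZNF446, which has both SCAN and KRAB, had 1 peak on its strand with a fold of 6.80 (58477378 to 58477577) and 1 on the opposite strand with 5.36, under another gene ID (ENSG00000083807). In ZNF780A the opposite-strand peak is described below with its 5′ end. A peak on the strand of the gene was found in 12 ZNF genes. With ZNF480 as well, whose strand was not in the table, it was 13 of 250, against 31.6% of other chromosome 19 genes counted in the same way.

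ZNF780A and ZNF780B are neighbouring KRAB paralogs that each had a peak at the 5′ end. In ZNF780A (40069152 to 40090943, minus strand) a peak of 2 blocks at 40090445 to 40090886 began 57 bases from the start of the gene, with a fold of 4.67 (FDR 4.68e-05). A plus strand peak under another gene ID (ENSG00000269296), at 40090754 to 40090853, overlapped it (fold 4.52, FDR 2.51e-14). That FDR was the lowest of the 36 peaks, and 0.0209% of the list had one as low. The ZNF780A summit (−log10 q 14.9) lay at 40090870, 73 bases from the gene start. It fell inside the minus strand peak and 17 bases from the plus strand peak. Summits were assigned without a strand, so this one cannot be ascribed to either strand. In ZNF780B (40028260 to 40056231, minus strand) the matching peak at 40055524 to 40056131 began 100 bases from the start, with a fold of 5.90 (FDR 1.41e-05). A second ZNF780B peak, at 40034152 to 40034252, had the lowest fold of all, 1.67. Reads can be shared between such related genes, so their assignment is uncertain.

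Among members of known strand, peaks began within 400 bases of the gene start in 4, ZNF780A, ZNF780B, ZNF264 and ZNF8. The promoters of these 4 are shown for this reason. ZNF480 was not counted, as its strand and promoter were not in the table. Its span starts at 52297169 and its plus strand peak at 52297219. Each sequence runs 5′ to 3′ on the strand of the gene, from 250 bases before to 50 after the RefSeq start (GRCh38.p14). Capitals mark the GC box GGGCGG and the ETS core CCGGAAG, both searched on both strands, where the matches of one motif may overlap those of the other. The windows are chr19:40090894-40091193 (minus), chr19:40056182-40056481 (minus), chr19:57191250-57191549 (plus) and chr19:58278705-58279004 (plus).
ZNF780A: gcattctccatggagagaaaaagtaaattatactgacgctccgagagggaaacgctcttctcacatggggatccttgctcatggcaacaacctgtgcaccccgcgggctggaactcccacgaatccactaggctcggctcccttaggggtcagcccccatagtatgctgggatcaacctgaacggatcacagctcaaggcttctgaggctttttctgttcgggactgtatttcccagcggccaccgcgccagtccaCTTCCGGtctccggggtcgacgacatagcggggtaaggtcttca
ZNF780B: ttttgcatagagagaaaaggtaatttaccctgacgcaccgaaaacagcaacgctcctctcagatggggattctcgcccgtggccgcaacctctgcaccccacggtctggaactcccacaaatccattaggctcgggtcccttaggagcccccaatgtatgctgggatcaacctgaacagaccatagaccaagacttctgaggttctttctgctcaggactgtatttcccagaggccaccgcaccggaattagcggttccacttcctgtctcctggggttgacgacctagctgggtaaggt
ZNF264: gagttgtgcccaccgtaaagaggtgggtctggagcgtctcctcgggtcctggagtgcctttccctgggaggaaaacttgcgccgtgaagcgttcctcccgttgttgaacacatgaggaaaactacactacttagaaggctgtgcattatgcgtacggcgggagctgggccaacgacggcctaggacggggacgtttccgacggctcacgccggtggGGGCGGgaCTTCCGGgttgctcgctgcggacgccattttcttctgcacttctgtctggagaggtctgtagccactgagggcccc
ZNF8: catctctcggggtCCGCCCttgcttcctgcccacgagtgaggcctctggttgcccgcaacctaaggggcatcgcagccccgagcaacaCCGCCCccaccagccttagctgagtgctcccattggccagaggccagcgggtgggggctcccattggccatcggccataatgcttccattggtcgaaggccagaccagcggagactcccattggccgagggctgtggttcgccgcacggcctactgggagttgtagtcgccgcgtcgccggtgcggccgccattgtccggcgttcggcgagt

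The promoters of the 2 paralogs matched at 244 of 312 alignment columns (78.2%). ZNF780A held 1 ETS core and 0 GC boxes, and ZNF780B held 0 of either. In ZNF264 there was 1 of each, and in ZNF8 there were 2 GC boxes. The table had promoters for 219 of the 250 ZNF genes. An ETS core was found in 100 of them (45.7%), against 10.7% of all 27305 promoters in the table. It was found in 6 of 14 ZNF genes with a peak or summit and in 94 of 205 with neither (45.9%). Other chromosome 19 genes held it in 68 of 340 promoters with a peak or summit (20.0%) and 56 of 626 with neither (8.95%). A GC box was found in 8 of 14 ZNF promoters with a peak or summit and 140 of 205 with neither (68.3%), against 279 of 340 (82.1%) and 358 of 626 (57.2%) for other chromosome 19 genes and 44.6% of all promoters. CCAAT was in 5 of 14 and 112 of 205 (54.6%), and TATAAA in 0 of 14 and 4 of 205. A match is only a stretch of letters and says nothing of a bound factor.

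ZNF promoters with a peak or summit had a median of 64.0% G and C (54.0 to 75.0) and 22.5 CpG dinucleotides, against 59.3% (39.0 to 78.3) and 20.0 in ZNF promoters with neither. The ranges overlap almost wholly. Other chromosome 19 genes had medians of 67.0% and 29.0 CpG with a peak or summit, and 62.3% and 14 with neither.

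**Figure D3:**
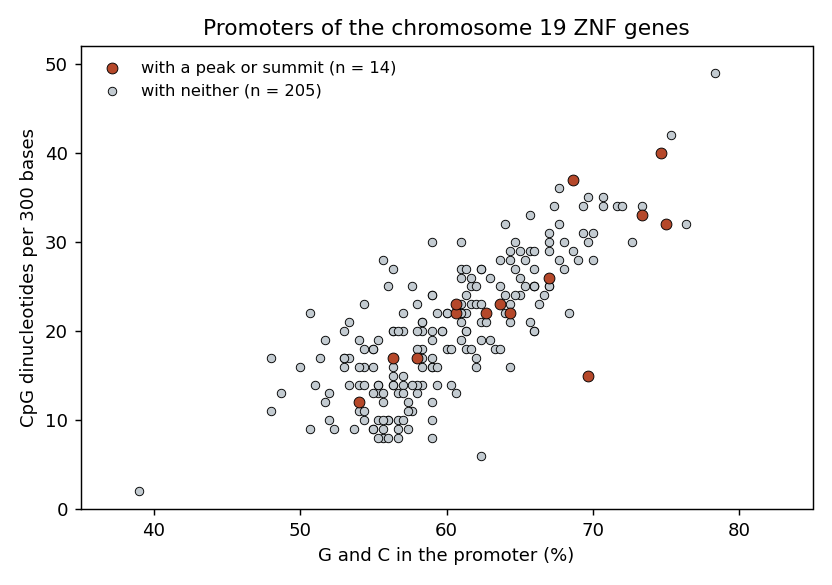
Number of CpG dinucleotides (y axis) against the percent of G and C (x axis) in the promoters of 219 ZNF genes of chromosome 19, each a point. The 14 with a peak or summit (red) lie between 54.0% and 75.0%, inside the cloud of the 205 with neither (grey).

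Along the ZNF genes the peaks were spread from end to end. On the strand of the gene, the middle of the peak lay at a median of 56.8% of the span from the 5′ end over 31 peaks of ZNF genes, against 68.1% over 791 peaks of other chromosome 19 genes. The part beyond 66.7% of the span held 45.2% of the peaks of ZNF genes and 51.2% of those of other genes. The 31 peaks include 6 of ZNF444, 4 of ZNF787 and 7 overlapping rows of ZNF8 that cover 3 separate regions. ZNF444 and ZNF787 each had peaks in the middle and at the 3′ end. In ZNF264 and ZNF780B there was 1 peak at the 5′ end and 1 farther down.

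**Figure D4:**
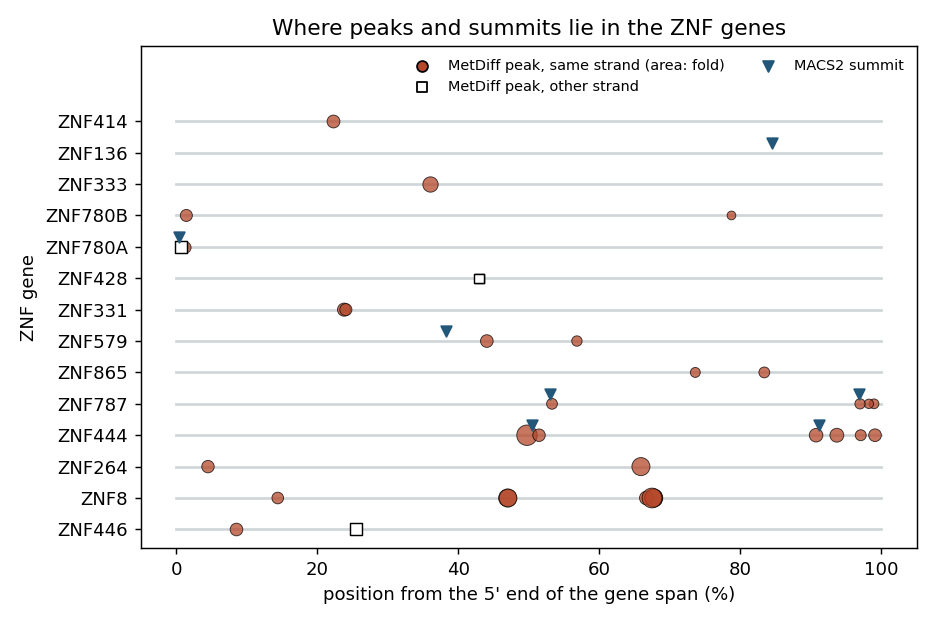
Position of MetDiff peaks and MACS2 summits in the 14 ZNF genes with a known strand, as percent of the gene span from the 5′ end (x axis). Red circles are peaks on the strand of the gene with an area that grows with fold, white squares are peaks on the other strand and blue triangles are summits; the summits of ZNF444 and ZNF787 stand near their peaks, while ZNF136 has a summit alone.

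The spans of members with and without a peak overlapped in length. The median span was 26776 bases (4075 to 77035) in the 15 ZNF genes with a peak or summit and 23145 (2469 to 487995) in the 235 with neither. ZNF spans were divided into 3 classes of nearly equal number. In the short class, up to 17682 bases, 5 of 84 ZNF genes had a MetDiff peak (5.95%), against 29.3% of other chromosome 19 genes of those lengths. The middle class, up to 29863 bases, had 5 of 83 (6.02%), against 41.6% of other genes. In the long class there were 4 of 83 (4.82%), against 40.9% of other genes.

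Members with a peak stood in less dense neighbourhoods of ZNF genes. Among the 10 nearest protein-coding genes, a median of 4 were ZNF genes for the 15 members with a peak or summit and 8 for the 235 with neither. Both groups ranged from 0 to 10. With 5 to 10 ZNF genes among the nearest 10, 6 of 204 ZNF genes had a MetDiff peak (2.94%), against 11 of 55 other genes (20.0%). With 1 to 4 such neighbours, 6 of 35 ZNF genes had one (17.1%), against 69 of 214 other genes (32.2%). With 0 it was 2 of 11 ZNF genes, ZNF414 and ZNF333, against 311 of 932 other genes (33.4%). In both sets the share was lowest in the densest neighbourhoods.

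**Figure D5:**
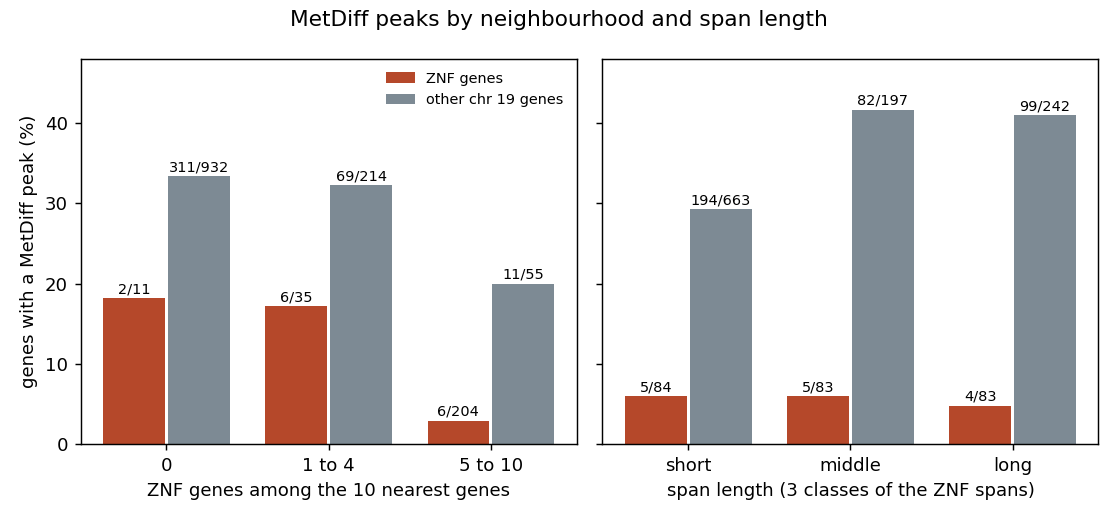
Share of genes with a MetDiff peak (y axis, percent) by the number of ZNF genes among the 10 nearest genes (left) and by span length (right), for ZNF genes (red) and other chromosome 19 genes (grey); the fractions above the bars give the counts. The red bar is below the grey one in each pair, and it is lowest, at 2.94%, with 5 to 10 ZNF neighbours.

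Position along the chromosome gave unequal counts. Below the stretch without protein-coding genes around the centromere (24129968 to 29205320), 2 of 84 ZNF genes had a MetDiff peak (2.38%), against 38.3% of 564 other genes. Above it, 12 of 166 had one (7.23%), against 27.5% of 637 other genes. Between 20 and 40 Mb, 0 of 31 and 0 of 34 ZNF genes in the successive 10 Mb windows had a peak or summit, against 3 of 9 (33.3%) and 54 of 152 (35.5%) other genes with a MetDiff peak. Between 40 and 50 Mb, 3 of 30 ZNF genes had a MetDiff peak, against 88 of 289 other genes (30.4%). These 3 were ZNF780A, ZNF780B and ZNF428, the last with peaks on the opposite strand only. The last window, from 50 to 60 Mb, held 102 ZNF genes, of which 9 had a MetDiff peak, and there 15.9% of 189 other genes had one. Within it, ZNF579, ZNF865, ZNF787 and ZNF444 were successive members with a peak, between 55576774 and 56160893.

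The wider family of zinc finger genes of the chromosome was counted in the same way. Of 19 with symbols such as ZFP, ZSCAN, ZBTB, ZIK1, ZIM or PEG3, MetDiff peaks lay in 2 (10.5%, 95% Wilson interval 2.94 to 31.4) and summits in 0 (up to 16.8). These intervals hold the shares of all protein-coding genes, 21.3% and 9.4%. Of the other protein-coding chromosome 19 genes, which include these 19, 32.6% held a MetDiff peak and 16.4% a summit. The MetDiff interval ends below the first of these shares, and the summit interval holds the second. ZFP30, a KRAB gene, had a fold of 4.4 and ZBTB7A, a BTB domain repressor, 1.85. The partners of KRAB were counted too. MetDiff peaks lay in 9 of 20 cofactors and linked silencing genes and summits in 6, read against 21.3% and 9.4% of all protein-coding genes. TRIM28, itself on chromosome 19 (58544064 to 58550715), had 2 peaks, the higher with a fold of 11.3, and 5 summits that reached −log10 q of 55.4. The other chromosome 19 members were DNMT1, the maintenance DNA methyltransferase, with 5 peaks up to 7.33, and UHRF1, which guides it to newly made DNA, with 2 peaks up to 8.41. SETDB1 had 2 peaks up to 5.43 and no summit. The heterochromatin protein gene CBX3 reached 8.44, the remodellers CHD4 and CHD3 9.40 and 3.91, the deacetylase HDAC1 6.62 and TASOR, of the HUSH silencing complex, 7.08. HDAC2 had a summit with 16.8 and no MetDiff peak. Neither a MetDiff peak nor a summit lay in ATF7IP, CBX1, CBX5, SMARCAD1, MORC3, MPHOSPH8, PPHLN1, ATRX, DAXX or ZNF638.

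Summits of ZNF genes did not reach the strongest of the chromosome. The 7 summits had a median −log10 q of 11.3 (6.22 to 37.1), against 14.8 (1.35 to 97.7) over 403 summits of other chromosome 19 genes. The highest values of the chromosome outside the ZNF set belonged to APOE (97.7), PLEKHG2 (94.5) and AKT2 (91.1). The median FDR of MetDiff peaks was 1.73e-04 in ZNF genes and 2.69e-04 in the other genes. These medians cover listed peaks only.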

How the data were processed

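PANC-1 libraries (12 in 4 groups of 3, grouped by title) were represented by 2 deposited lists without headers. Per the submitters' processing notes, STAR 2.7.1, MACS2 2.2.5 and the GRCh38 build were among the tools. Settings, pooling and libraries of the peak calling were not given in the sources used here. Each deposited MetDiff peak has a p-value, the log10 of an FDR and a ratio, taken as fold. The deposited MACS2 value was taken as −log10 q, since its minimum is 1.35. Peaks were those of the authors, and no count table was used here.

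A gene had a peak when the whole peak lay in its RefSeq span (GRCh38.p14), also where another gene shares it. Summits were assigned by position alone, without a strand. Strands and promoters came from a RefSeq table. Coordinates count from 1. Counts and medians were computed with Python 3.11.15 and pandas 2.3.3, and the assignment of peaks to genes was tested on simulated data. The named genes are all ZNF genes of chromosome 19 with a peak or summit and all listed cofactors. To these were added the wider zinc finger genes with a peak and the 3 highest other chromosome 19 genes by each value. Markers of the line were named to check its identity. The ZNF genes named on other chromosomes and ZNF580, ZNF581, SRRM5 and ZNF8-ERVK3-1 were named after their values were seen. Members and lists were chosen with earlier results of these data known, so no test was made on them. The planned count of zinc fingers and KRAB boxes from protein sequences and the comparison of knockdown with control were not made; protein sequences were not used here. Domains in the text are background knowledge.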

Additional observations from a re-analysis of the deposited data

How the results depend on the processing

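No paired analysis was possible because neither list has a value per library. For the same reason no replicate could be left out, and the depth of the libraries, which limits what could be called, is unknown. Of 51 recomputed values, 36 stayed within 1.5 times the count or inside the 95% interval of the share or median, and 15 did not. Counts in smaller sets of ZNF genes, as on either side of the centromere, were compared with the count over all 250. A smaller set alone can move such a count, so for these the tally does not measure stability. ZNF genes with a MetDiff peak numbered 12 with peaks in the span of 1 gene of any biotype, 13 with peaks in 1 protein-coding gene or on the strand of the gene (ZNF480 kept), 14 with the FDR and fold filters, and 16 in 2 cases. The 16 came from counting any overlap, which added ZNF580 and ZNF581 through 1 peak that ran past both spans (fold 5.77), and equally from adding the wider zinc finger symbols. Of other chromosome 19 genes, 30.1% had a peak in the span of 1 gene of any biotype and 30.6% in 1 protein-coding gene. Their share was 31.6% on the strand of the gene, 31.1% with the FDR filter, 31.5% with the fold filter and 33.1% with any overlap. Below the centromere, MetDiff peaks lay in 2 of 84 ZNF genes and a summit in 1, against 38.3% and 19.3% of other genes there. Summits with −log10 q of at least 10 lay in 3 ZNF genes, against 13.2% of other chromosome 19 genes, and summits inside a MetDiff block in 2, against 6.08%. The share of other chromosome 19 genes with a MetDiff peak was 36.7% without families of restricted expression, 29.3%, 41.6% and 40.9% in the short, middle and long classes of ZNF span length, and 20.0% with 5 to 10 ZNF neighbours. Their share with a summit was 19.8% in the long class and 10.9% with 5 to 10 ZNF neighbours. With the strongest value of each gene, their medians were 6.71 for fold and 17.1 for −log10 q. The splits by strand and ZNF neighbours and the median without ZNF8 were chosen after the data were seen.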

Other observations

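ZNF genes on other chromosomes, set beside those of chromosome 19, had 93 MetDiff peaks with a median fold of 5.50 and a highest fold of 16.5 in ZNF707. ZNF692 and ZNF696 followed with 16.0 and 15.4. Their peaks lay nearer the 5′ end, with 43.2% in the first 33.3% of the span on the strand of the gene, against 27.9% over all protein-coding genes. Their 9 summits reached −log10 q of 13.7 in ZNF687.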
